A study of Mus musculus with 4 samples.

Results

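Malat1, Neat1, Meg3, Rian, Mirg, Miat, Snhg11, Sox2ot and Rmst, 9 long noncoding RNAs (lncRNAs) known for being kept in the cell nucleus, were followed through single-nucleus RNA sequencing of the mouse hippocampus. They were chosen by symbol, with earlier results of these data known, and are 9 of the 32285 genes in the count tables. The study compared 2 mice trained in active place avoidance, in which a shock zone on a turning platform has to be avoided, with 2 untrained mice. Hippocampi were collected 3 days after memory retention had been tested, with no recall session in between, so the comparison asks what differs while the memory is kept. All 4 mice, Trained and Untrained alike, had the genotype ArcCreERT2::eYFPflx, in which a tamoxifen-inducible Cre driven by Arc marks with eYFP the neurons that expressed Arc at the retention test. The eYFP mark was not used, so tagged and untagged neurons were pooled; the tagged nuclei and the spatial data were not analysed here. With 1 library for each mouse, n = 2 in each group, and p-values measure only the spread between these 4 libraries. The counts are unique molecular identifiers (UMIs), and levels are given as CPM, a gene's UMIs in every 1000000 UMIs of the barcodes summed.

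Malat1 sits in nuclear speckles, domains that store splicing factors, and Neat1 is the scaffold of paraspeckles, bodies that hold RNA-binding proteins and some edited transcripts. Meg3, Rian and Mirg are read from the maternal chromosome of the imprinted Dlk1-Dio3 region and carry clusters of small nucleolar RNAs and microRNAs in their introns and exons. Miat, also called Gomafu, forms nuclear spots in neurons and binds splicing factors. Snhg11 is a host gene of small nucleolar RNAs with strong expression in brain, Sox2ot overlaps the gene of the stem cell factor Sox2, and Rmst is a partner of SOX2 in neural differentiation.

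The start sites of 3 members are shown because Meg3 and Snhg11 had alike levels across cell classes and Malat1, which did not follow them, shares a motif with Meg3. The windows run from 250 bases before to 50 bases after the start, from RefSeq on GRCm38.p6, 5′ to 3′ on the gene's strand, and capitals mark TGACGT or its reverse complement, the core of a cyclic AMP response element. Windows of Neat1, Sox2ot and Rmst were not used here.
Meg3: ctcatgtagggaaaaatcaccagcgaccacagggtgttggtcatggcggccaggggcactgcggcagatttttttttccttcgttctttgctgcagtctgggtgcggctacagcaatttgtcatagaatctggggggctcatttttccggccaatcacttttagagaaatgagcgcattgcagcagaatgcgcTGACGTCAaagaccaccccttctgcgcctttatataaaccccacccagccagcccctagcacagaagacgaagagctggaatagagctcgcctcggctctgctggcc
Snhg11: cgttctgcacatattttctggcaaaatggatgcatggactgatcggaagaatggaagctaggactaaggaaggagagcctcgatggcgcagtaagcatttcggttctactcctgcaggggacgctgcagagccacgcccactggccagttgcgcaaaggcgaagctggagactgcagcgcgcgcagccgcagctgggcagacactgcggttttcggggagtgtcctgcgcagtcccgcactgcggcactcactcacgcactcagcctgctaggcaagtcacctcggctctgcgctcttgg
Malat1: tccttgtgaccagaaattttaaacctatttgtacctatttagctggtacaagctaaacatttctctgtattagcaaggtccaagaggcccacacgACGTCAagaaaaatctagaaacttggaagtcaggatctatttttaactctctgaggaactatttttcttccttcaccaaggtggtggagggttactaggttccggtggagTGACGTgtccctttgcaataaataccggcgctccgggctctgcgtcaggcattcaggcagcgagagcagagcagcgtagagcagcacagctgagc
The Meg3 window, the first of 2 listed for that gene, lies at chr12:109540746-109541045 on the plus strand, that of Snhg11 at chr2:158375463-158375762 on the plus strand and that of Malat1 at chr19:5802623-5802922 on the minus strand. TGACGT, searched on both strands, was in the windows of Meg3 and Malat1 and in 7.51% of all 32851 windows in the table. The longer TGACGTCA, which contains TGACGT, was in the Meg3 window only among the members' windows, 57 bases before the start, and in 1.79% of all windows. TATATAA, searched on both strands, began 27 bases before the Meg3 start and was in 3.24% of all windows. These 3 motifs had no match in the windows of Snhg11, Rian, Mirg and Miat or in the second Meg3 window. A match is a run of letters and was not tested as a site.

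Mirg and Rian are read through arrays of microRNA hairpins, and the mature sequences are shown for what the host transcript carries. RefSeq places 19 mature microRNAs from 10 genes inside Mirg, 6 from 3 genes inside Rian and 3 from 2 genes inside Meg3. The seed, bases 2 to 8, is in capitals in each sequence below.
mmu-miR-453: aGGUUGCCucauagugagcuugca
mmu-miR-496a-5p: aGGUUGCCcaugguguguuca
mmu-miR-409-5p: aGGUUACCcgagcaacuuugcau
mmu-miR-410-5p: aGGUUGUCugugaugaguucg
mmu-miR-154-5p: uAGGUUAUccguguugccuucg
mmu-miR-377-5p: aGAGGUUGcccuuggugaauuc
mmu-miR-370-3p: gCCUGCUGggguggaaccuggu
mmu-miR-770-5p: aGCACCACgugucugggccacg
The first 6 lie inside Mirg, mmu-miR-370-3p inside Rian and mmu-miR-770-5p inside Meg3. Of the Mirg microRNAs, mmu-miR-453 and mmu-miR-496a-5p share their whole seed, and the first 6 shown are the 6 of 19 whose seed holds GGUU, a run in the seed of 43 of all 1679 mature microRNAs in the table. Only the host transcripts were measured, not the mature microRNAs.

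Nuclei were taken as barcodes of at least 600 UMIs, 6019 and 12206 in Trained replicates 1 and 2 and 16916 and 11969 in Untrained replicates 1 and 2. Their median depth was 736 and 887 UMIs in the Trained and 957.5 and 1079 UMIs in the Untrained libraries, so depth moved with the groups. Barcodes under 400 UMIs, 26378 to 55744 in a library, were summed as the free RNA pool. The pool too differed between groups, with a median of 216 and 222 UMIs in the Trained and 312 and 306 UMIs in the Untrained libraries. Between 17 and 65 barcodes of nuclei were shared by any 2 libraries. Each nucleus was set against 14 lists of marker genes, and 8 classes held at least 30 nuclei in every library. A nucleus joined a class with at least 3 UMIs of its markers, a limit set after the data had been seen. They are called by their lists: dentate granule-like (3286 nuclei), CA1 pyramidal-like (2305), CA3 pyramidal-like (1799), oligodendrocyte-like (1599), inhibitory-like (1597), thalamic excitatory-like (1465), cortical or subicular excitatory-like (1003) and astrocyte-like (425). The thalamic and cortical lists stand for tissue beside the hippocampus, which the labels give as the source. At 600 UMIs many nuclei could not be placed, and 59.3% to 66.7% of a library met no list. Another 6.12% to 10.2% met a list without a clear lead over the other lists. They were left out, with possible doublets among them. The share of a class at that lowest marker count was at most 14.9%, except 23.3% in the astrocyte-like class. Of class members in a named Leiden cluster, 69.0% to 94.5% lay in the cluster of the same name, lowest for the cortical or subicular and oligodendrocyte classes. Astrocyte-like nuclei held 4407 to 5320 CPM of their own list and also 1724 to 2174 CPM of dentate granule markers. Thalamic-like nuclei held 5564 to 5898 CPM of their own list and 2794 to 3540 CPM of inhibitory markers, and inhibitory-like nuclei 12002 to 15348 CPM of their own and 2454 to 3558 CPM of CA1 markers. Class shares differed between groups, and CA3-like nuclei were 5.96% and 5.25% of the Trained and 2.42% and 3.26% of the Untrained libraries. Cortical or subicular-like nuclei were 0.68% and 1.34% of the Trained and 3.31% and 1.99% of the Untrained libraries. For astrocyte-like nuclei these shares were 0.58% and 0.64% against 0.97% and 1.24%. The part of class shares in the training results for all nuclei and the pool was not tested.

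The members differed widely between classes. Of 72 tests, 9 members in 8 classes against the mean of the other classes, 55 passed the quasi-likelihood test of edgeR at a Benjamini-Hochberg adjusted p under 0.05, where 19.2% of all gene tests passed. By class, 9 of 9 members were called in CA3-like nuclei (22.6% of genes), 8 in thalamic-like (29.8%), 7 in CA1-like (21.4%), 7 in dentate granule-like (24.6%), 7 in astrocyte-like (11.1%), 6 in inhibitory-like (16.9%), 6 in oligodendrocyte-like (18.2%) and 5 in cortical or subicular-like nuclei (8.96%). In CA3-like nuclei the Miat call held under 3 of 14 other settings and the Neat1 call under 7 of 14. Called values below had an adjusted p of at most 0.0354.

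Malat1, the speckle RNA, had a UMI in 100% of the nuclei of all 8 classes, also after each nucleus was thinned to 600 UMIs. It was lowest in thalamic-like nuclei, at 27121 and 30513 CPM in the Trained and 22297 and 23577 CPM in the Untrained libraries. All 4 values lay below every library of the next class, cortical or subicular-like nuclei at 39602 ± 3540 CPM (SD, n = 4). The thalamic log2 difference from the other classes was -0.87 ± 0.11 (SE) and that of the cortical or subicular class -0.38 ± 0.11, a call lost without Trained replicate 2 and without either Untrained replicate. CA3-like nuclei had the highest mean, 66121 ± 10405 CPM, and a log2 difference of 0.70 ± 0.10. The remaining 5 classes, between 48237 and 54250 CPM on average, overlapped their neighbours in this order and none passed the test for Malat1. The free RNA pool also held much Malat1, with 31710 and 30878 CPM in the pool of the Trained and 15218 and 17577 CPM in that of the Untrained libraries.

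Neat1, the paraspeckle scaffold, was highest in the 2 glial classes. Oligodendrocyte-like nuclei held 421 and 359 CPM in the Trained and 409 and 574 CPM in the Untrained libraries, and astrocyte-like nuclei 298 and 140 CPM in the Trained and 188 and 173 CPM in the Untrained libraries. No other class averaged more than 58.5 CPM, and that mean, of the cortical or subicular class, had an SD of 66.2 CPM. The log2 difference was 3.37 ± 0.13 in oligodendrocyte-like and 1.85 ± 0.27 in astrocyte-like nuclei, and in thalamic-like nuclei, which had 20.9 ± 6.85 CPM, Neat1 fell by 1.60 on the log2 scale. After thinning, 18.1% to 25.9% of oligodendrocyte-like nuclei held a Neat1 UMI, against 1.01% to 1.64% of thalamic-like nuclei. Unthinned, these shares were 24.9% to 35.9% and 1.64% to 3.19%, at median depths of 784 and 1137 UMIs. The pool held 108 and 114 CPM of Neat1 in the Trained and 34.9 and 39.7 CPM in the Untrained libraries, so neuronal levels in this range are not read as expression. In oligodendrocyte-like nuclei 45 of 76 ribosomal protein genes were called higher too, and their part in the Neat1 result was not tested.

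Meg3, Rian and Mirg, from the imprinted region, kept the same order of classes to a large extent. Thalamic-like nuclei were highest for all 3. Meg3 reached 8722 and 9721 CPM in the Trained and 9366 and 11280 CPM in the Untrained libraries, Rian 813 and 941 CPM in the Trained and 854 and 984 CPM in the Untrained libraries, and Mirg 170 and 198 CPM in the Trained and 162 and 196 CPM in the Untrained libraries. Inhibitory-like nuclei came next, with 8557 ± 876 CPM of Meg3, 677 ± 77.2 CPM of Rian and 116 ± 4.36 CPM of Mirg, and only for Meg3 did their libraries overlap the thalamic ones. Dentate granule-like nuclei were lowest for all 3, at 3229 and 1917 CPM of Meg3 in the Trained and 1584 and 1835 CPM in the Untrained libraries. Rian there had 240 ± 77.3 CPM and Mirg 25.6 ± 6.47 CPM. The libraries of dentate granule-like and astrocyte-like nuclei overlapped for all 3, so the order of these neighbours is not set.

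In thalamic-like nuclei the log2 difference from the other classes was 1.17 ± 0.09 for Meg3, 1.25 ± 0.09 for Rian and 1.68 ± 0.12 for Mirg. In dentate granule-like nuclei Meg3 fell by 1.47, Rian by 1.15 and Mirg by 1.79 on the log2 scale, and in astrocyte-like nuclei by 1.28, 1.21 and 1.74. The mean level in thalamic-like over that in dentate granule-like nuclei was 4.56-fold for Meg3, 3.75-fold for Rian and 7.08-fold for Mirg. CA1-like and CA3-like nuclei lay between, with 6389 ± 220 and 6791 ± 362 CPM of Meg3. After thinning, 97.5% to 99.7% of thalamic-like and 54.0% to 79.1% of dentate granule-like nuclei held a Meg3 UMI. Without thinning, these shares were 98.8% to 100% and 73.3% to 86.3%, at median depths of 1137 and 908.5 UMIs. The pool, at 2347 and 1189 CPM in the Trained and 918 and 1237 CPM in the Untrained libraries, lay below dentate granule-like nuclei of the same library in all 4 libraries. For Rian and Mirg dentate granule-like nuclei lay below the pool of the same library in 3 of 4 libraries, so these low levels are not told apart from free RNA and the folds over them rest on it.

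Snhg11 had much the same order as Meg3, and lies on chromosome 2 where Meg3 lies on chromosome 12. Inhibitory-like nuclei had 2586 and 3931 CPM in the Trained and 3472 and 4692 CPM in the Untrained libraries, and dentate granule-like nuclei 1110 and 635 CPM in the Trained and 608 and 692 CPM in the Untrained libraries. The log2 difference was 0.95 ± 0.09 in inhibitory-like and 0.80 ± 0.09 in thalamic-like nuclei, and Snhg11 fell by 1.66 in dentate granule-like and by 1.08 in astrocyte-like nuclei. The 5 neuronal classes other than dentate granule each averaged at least 2655 CPM and overlapped their neighbours, while the 3 lowest classes averaged at most 1503 CPM. The pool held 1292 and 1046 CPM of Snhg11 in the Trained and 787 and 1029 CPM in the Untrained libraries, above dentate granule-like nuclei of the same library in all 4. Over the 32 sums of class and library, the Pearson correlation of log2(CPM + 10) with Meg3 was 0.95 for Snhg11, 0.97 for Rian and 0.87 for Mirg. Within each library alone, over 8 classes, Meg3 and Snhg11 correlated at 0.97 to 0.99 and Meg3 and Mirg at 0.76 to 0.97. The 0.76 was in Trained replicate 1, where the Mirg value of cortical or subicular-like nuclei rests on 1 UMI. These points share libraries, depth and the same pool, and the correlations are given as a description.

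**Figure D1:**
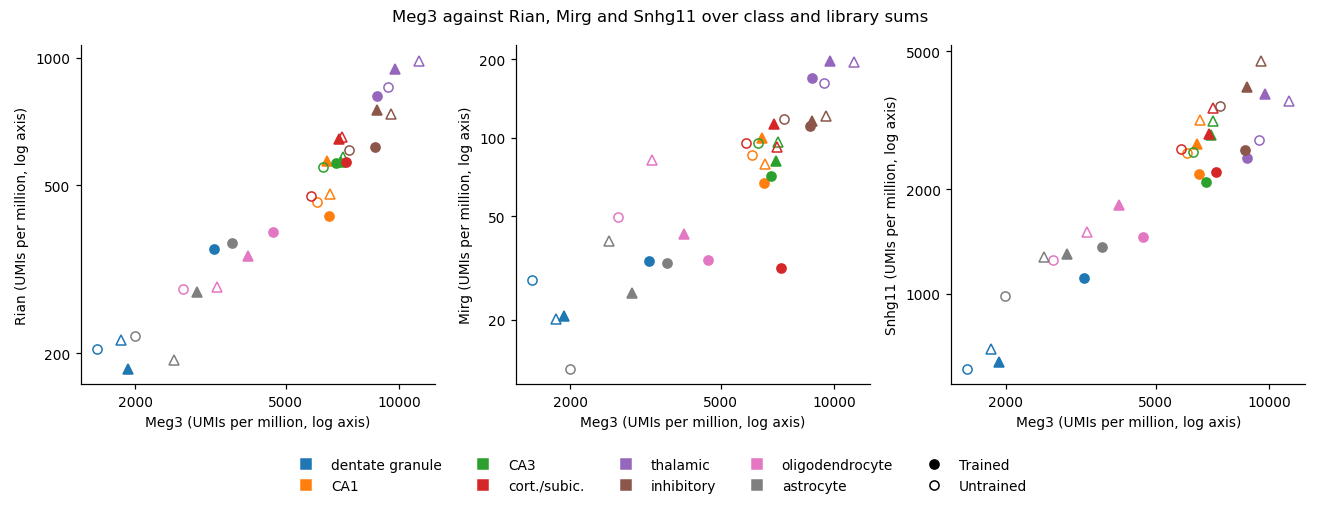
Meg3 level (x axis, CPM, log scale) against Rian, Mirg and Snhg11 (y axes, CPM, log scale) for 32 sums of 8 classes in 4 libraries. Filled symbols are Trained and open symbols Untrained libraries, circles replicate 1 and triangles replicate 2. Dentate granule-like sums lie at the low end and thalamic-like sums at the high end of each panel. The Trained replicate 1 cortical or subicular-like sum, with 31.5 CPM of Mirg, stands apart, and that value rests on 1 UMI in 41 nuclei.

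Miat, the neuronal nuclear spot RNA, had a different order. CA1-like nuclei were highest, at 281 and 326 CPM in the Trained and 256 and 289 CPM in the Untrained libraries, with a log2 difference of 0.78 ± 0.09. Dentate granule-like nuclei, low in Meg3 and Snhg11, were second for Miat, at 231 ± 34.7 CPM and a log2 difference of 0.38 ± 0.09, a call lost without Untrained replicate 2 and with a minimum of 1000 UMIs. Inhibitory-like nuclei, high in Meg3 and Snhg11, were lowest at 134 ± 15.7 CPM, and Miat fell there by 0.65. Neighbouring classes overlapped at every step of this order. Across the 32 sums Miat and Meg3 correlated at 0.13.

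Sox2ot was highest in inhibitory-like nuclei, at 698 and 900 CPM in the Trained and 877 and 728 CPM in the Untrained libraries. Oligodendrocyte-like nuclei followed, at 346 and 391 CPM in the Trained and 442 and 607 CPM in the Untrained libraries, and these 2 classes stood apart from each other and from all others. The log2 difference was 3.44 ± 0.10 in inhibitory-like and 2.45 ± 0.12 in oligodendrocyte-like nuclei, and it was negative and called in all 5 other neuronal classes, from -1.51 to -1.11. With a minimum of 1000 UMIs, which left only CA3-like, dentate granule-like and thalamic-like nuclei to set against each other, it was -0.19, 0.39 and -0.21 in these 3 and not called. After thinning, 27.6% to 35.6% of inhibitory-like and 2.21% to 3.53% of CA1-like nuclei held a Sox2ot UMI. Unthinned, these shares were 36.5% to 49.4% and 3.35% to 5.30%, at median depths of 989 and 1057 UMIs. Those 5 other neuronal classes averaged 47.5 to 72.6 CPM. The pool held 116 and 111 CPM of Sox2ot in the Trained and 50.2 and 55.1 CPM in the Untrained libraries. CA3-like, dentate granule-like and thalamic-like nuclei lay below the pool of the same library in all 4 libraries. Neuronal levels in this range are therefore not read as expression. Sox2 lies inside Sox2ot, and whether the counting used strand is not given in the sources used here. Sox2 itself had 9.43 to 20.7 CPM in inhibitory-like nuclei, from 26 UMIs in all, and its part in the Sox2ot level was not tested.

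Rmst was called higher in astrocyte-like nuclei, at 33.1 and 242 CPM in the Trained and 214 and 266 CPM in the Untrained libraries, with a log2 difference of 2.01 ± 0.24. The Trained replicate 1 value rests on 1 UMI in 35 nuclei. Thalamic-like nuclei were also called higher, at 68.7 and 72.2 CPM in the Trained and 89.6 and 188 CPM in the Untrained libraries, with a log2 difference of 1.15 ± 0.16. The Leiden cluster of thalamic name (2743 nuclei) held less, 48.4 and 51.7 CPM in the Trained and 51.1 and 32.4 CPM in the Untrained libraries, and with clusters in place of marker classes the difference was 0.61 and still called. Rmst was called lower in CA1-like, CA3-like and dentate granule-like nuclei, by 1.49, 1.01 and 1.11 on the log2 scale. The CA3-like call was lost with the stricter marker rule and with Leiden clusters. These classes averaged 29.2 to 36.5 CPM, and the pool held 38.2 to 59.2 CPM in the Trained and 16.3 to 35.2 CPM in the Untrained libraries. Such low levels are not told apart from free RNA. Outside these classes, in Leiden clusters made without the 9 members, a cluster with ependymal markers (436 nuclei) held 684 and 436 CPM of Rmst in the Trained and 851 and 1260 CPM in the Untrained libraries. An unnamed cluster of 3819 nuclei, with Ebf1 and Htr2c among its leading genes, held 280 and 448 CPM in the Trained and 428 and 545 CPM in the Untrained libraries.

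**Figure D2:**
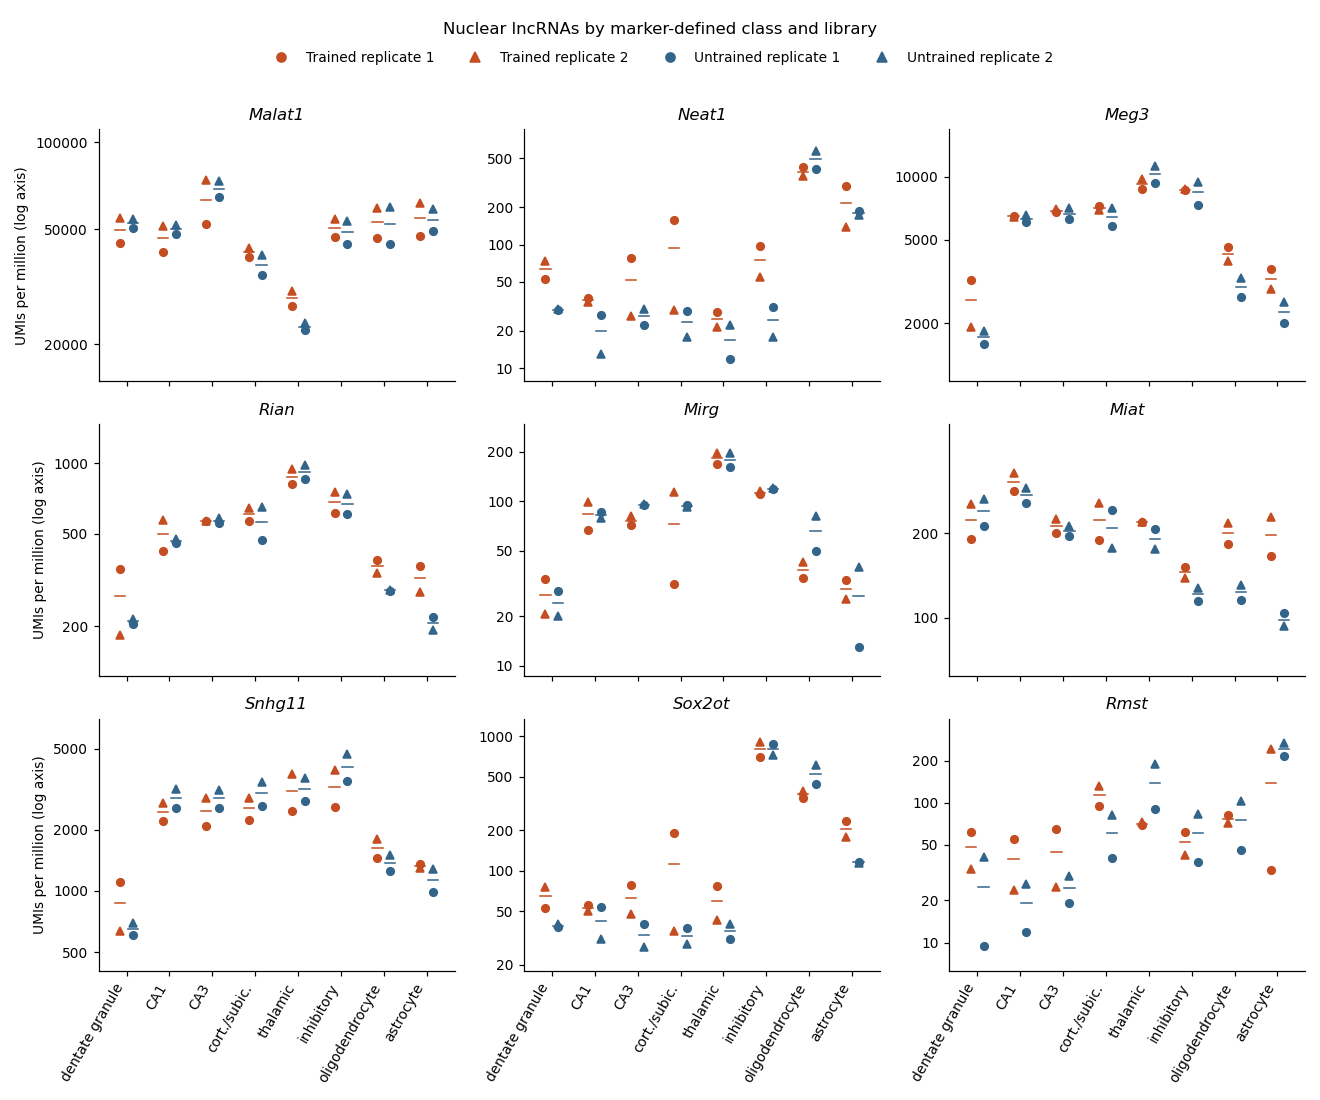
Level of each member (y axis, CPM, log scale) in 8 marker-defined classes (x axis). Orange points are Trained and blue points Untrained libraries, circles replicate 1 and triangles replicate 2, and short lines are group means; Meg3, Rian, Mirg and Snhg11 share low dentate granule-like and high thalamic-like or inhibitory-like levels, Neat1 is high in oligodendrocyte-like and Sox2ot in inhibitory-like nuclei.

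The genes nearest to each member in pattern were found among 4097 genes of at least 50 CPM over the same 32 sums, with the 9 members themselves left out of the ranking. Zfp385b was the nearest gene to Meg3 (r = 0.96), to Rian (r = 0.94) and to Snhg11 (r = 0.93), and Nrxn3 and Tenm4, a neurexin and a teneurin of synaptic adhesion, came next for Meg3 and Snhg11. Mirg was nearest to A230006K03Rik (r = 0.87) and Kcnc2, Malat1 to Dscaml1 (r = 0.86) and Prkca, and Miat to Kalrn (r = 0.84) and Gria3, an AMPA receptor subunit. Neat1 was nearest to Qk (r = 0.90), an RNA-binding protein of myelinating cells, and Sox2ot to Erbb4 (r = 0.90), which is itself a marker of the inhibitory list. Rmst was nearest to Spire1 (r = 0.83).

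Other transcripts of the imprinted region and genes beside the members were read for comparison. Of 9 Dlk1-Dio3 neighbours 4 passed the count filter. Rtl1 and B830012L14Rik, 2 transcripts of that region, were called lower in dentate granule-like nuclei by 1.25 and 1.31 on the log2 scale, and higher in inhibitory-like nuclei by 1.30 ± 0.16 and 0.51 ± 0.13. In thalamic-like nuclei B830012L14Rik was called higher by 1.06 ± 0.12 and Begain by 0.59 ± 0.22, while Rtl1 had 0.29 ± 0.19 and was not called. Yy1, a transcription factor gene near the region, had log2 differences between -0.08 and 0.12 in these 3 classes and none was called. Ralgapb, next to Snhg11, averaged 79.0 to 121 CPM across the 8 classes.

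Genes for proteins of nuclear speckles and paraspeckles, the bodies of Malat1 and Neat1, were read in the classes where these RNAs were lowest and highest. In oligodendrocyte-like nuclei, where Neat1 was highest, 1 of 11 paraspeckle protein genes was called higher and none lower, with a median log2 difference of 0.12 beside 0.03 for all genes. That gene was Hnrnpk, at 0.36 ± 0.12. In thalamic-like nuclei, where Malat1 was lowest, 3 of 15 nuclear speckle protein genes were called higher and 3 lower, with a median of 0.12 beside -0.03 for all genes. Srrm2 was higher there by 0.50 ± 0.09, and Son, which holds speckles together, fell by 0.42.

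Whether the members stayed with the nucleus was read from nuclei against the free RNA pool of the same library. Of the 9 members, 7 were called higher in nuclei, where 36.8% of the 17923 genes tested were called higher and 39% lower. Meg3 had 6330 and 6129 CPM in nuclei of the Trained and 5538 and 6215 CPM in nuclei of the Untrained libraries, with a log2 difference of 2.16 ± 0.25 from the pool values given above. Miat had 203 and 250 CPM in Trained and 217 and 231 CPM in Untrained nuclei, against 93.6 and 62.8 CPM in the Trained and 42.0 and 57.9 CPM in the Untrained pool, a log2 difference of 1.85 ± 0.17. Mirg, at 1.75 ± 0.12, had 87.5 and 91.2 CPM in Trained and 78.9 and 90.7 CPM in Untrained nuclei, against 36.0 and 22.2 CPM in the Trained and 19.9 and 26.2 CPM in the Untrained pool. For these 3 every library of nuclei lay above every pool, as it also did for Rian, Snhg11, Sox2ot and Malat1. Smaller differences were called for Snhg11 (1.19 ± 0.19), Rmst (1.16 ± 0.20), Rian (1.06 ± 0.12) and Sox2ot (0.80 ± 0.17), and that of Sox2ot was 0.50 and not called against a pool of 260 to 400 UMIs.

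The 2 members of nuclear bodies were not called. Malat1 had 43711 and 55261 CPM in Trained and 44317 and 50482 CPM in Untrained nuclei, above the pool in all 4 libraries, with a log2 difference of 1.07 ± 0.45 and an adjusted p of 0.0587 by edgeR. It passed under 7 of the 12 other settings tried, with DESeq2's Wald test and without Trained replicate 1 (1.26 ± 0.17) among them. Malat1 was not called without Trained replicate 2, Untrained replicate 1 or Untrained replicate 2, where the SE was 0.74, 0.84 and 0.91. Nor was it called without TMM or against a pool of 260 to 400 UMIs (0.97 ± 0.65). Neat1 had 95.02 and 62.5 CPM in Trained and 48.3 and 62.0 CPM in Untrained nuclei, against 108 and 114 CPM in the Trained and 34.9 and 39.7 CPM in the Untrained pool. Nuclei lay below the pool in both Trained and above it in both Untrained libraries, and the log2 difference was -0.02 ± 0.21. Nuclei also held 1331 to 1456 CPM of oligodendrocyte markers, where the pool held 2877 to 4339 CPM, and the part of this in the Neat1 result was not tested.

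Transcripts of the cytoplasm ran the other way. All 76 ribosomal protein genes and all 13 genes of the mitochondrial genome that were tested were called lower in nuclei, with median log2 differences of -1.73 and -1.55. The 24 other lncRNAs were split, with 13 higher and 11 lower and a median of 1.02. The 4 with the smallest p were all lower, the snoRNA host genes Snhg6 (-1.56), Snhg8 (-1.52) and Snhg12 (-1.22) and the imprinted Peg13 (-1.59), whereas Snhg11 was higher. Of 11 paraspeckle protein genes 3 were higher and 4 lower, and of 15 speckle protein genes 7 were higher and 4 lower.

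**Figure D3:**
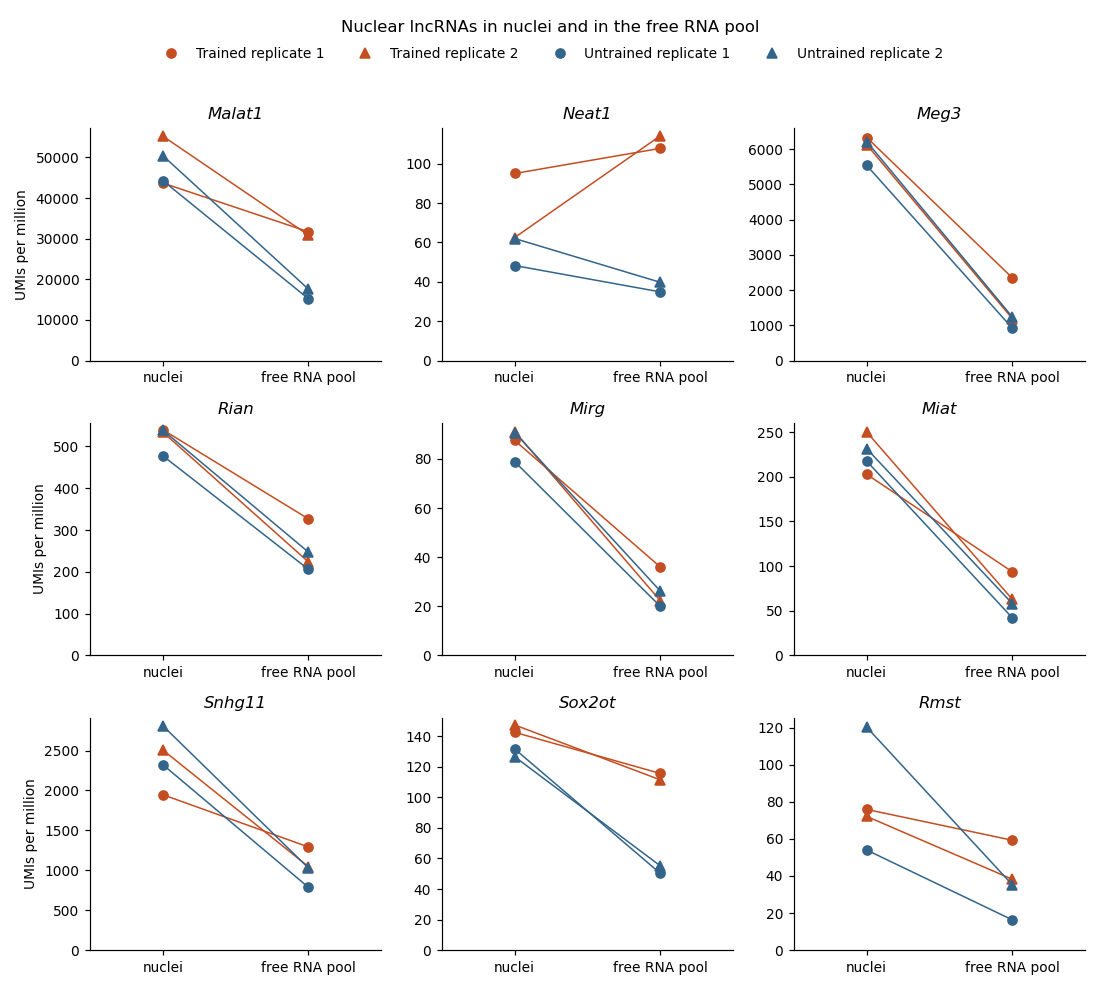
Level of each member (y axis, CPM, from 0) in nuclei and in the free RNA pool of the same library (joined points). Orange is Trained and blue Untrained, circles replicate 1 and triangles replicate 2. Every member except Neat1 is higher in nuclei than in the pool of each library. Neat1 lies higher in the pool of both Trained libraries and lower in that of both Untrained libraries.

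The level of the members was also read by the depth of the barcode. In barcodes of 1500 UMIs or more, Meg3 had 6758 and 6847 CPM in the Trained and 6832 and 7500 CPM in the Untrained libraries. In barcodes of 260 to 400 UMIs it had 3343 and 1301 CPM in the Trained and 913 and 1234 CPM in the Untrained libraries, so that all 4 libraries held more in deep barcodes. Neat1 had no such common profile. It was highest at 400 to 600 UMIs in both Untrained libraries, with 136 and 222 CPM, at 260 to 400 UMIs in Trained replicate 2, with 255 CPM, and at 1500 UMIs or more in Trained replicate 1, with 193 CPM from 30 UMIs in 89 barcodes. Sox2ot at 260 to 400 UMIs had 145 and 223 CPM in the Trained and 50.1 and 54.9 CPM in the Untrained libraries.

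**Figure D4:**
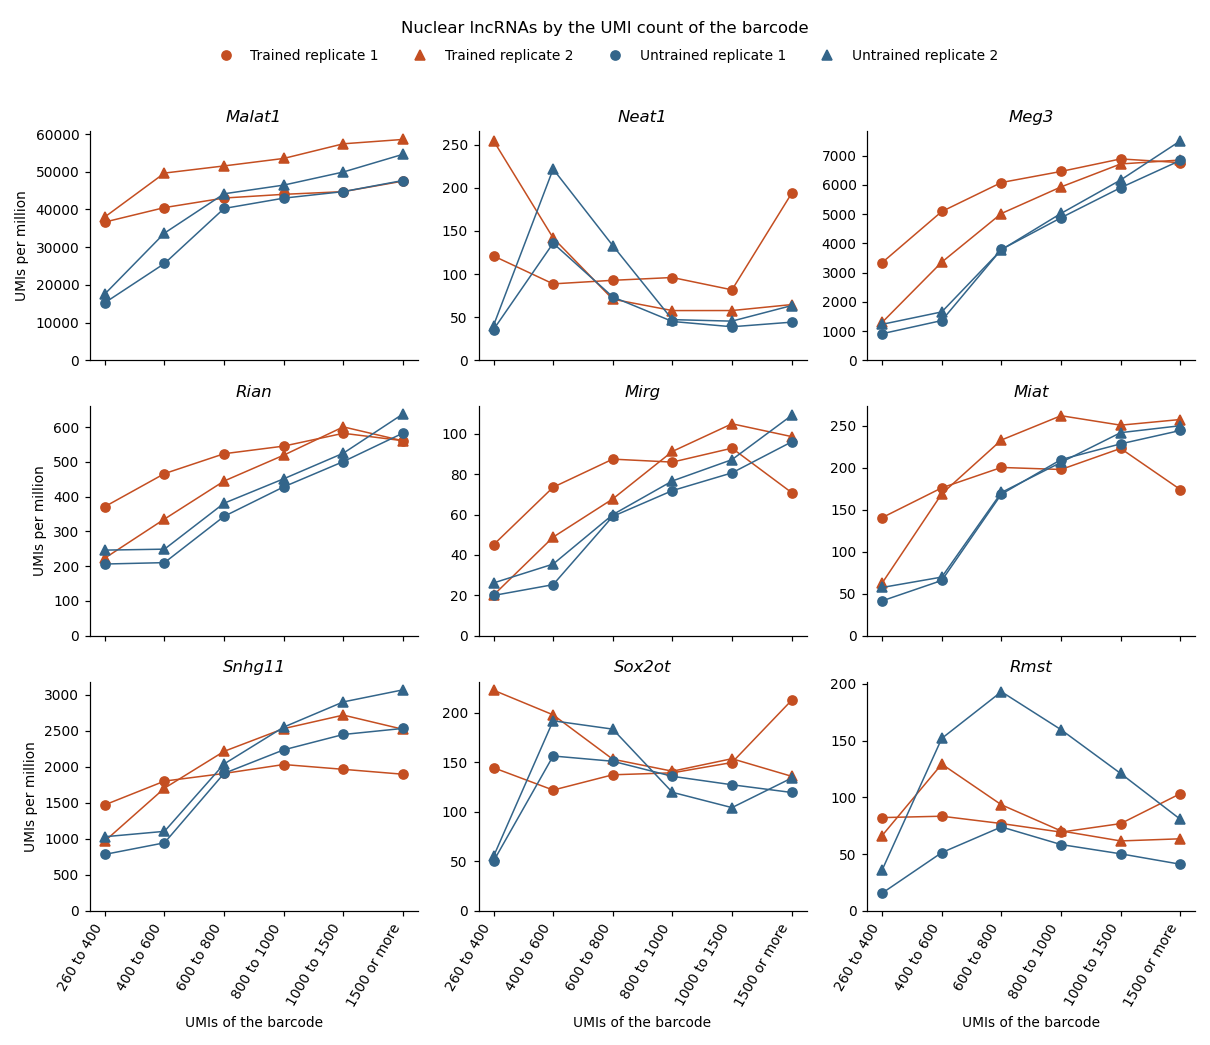
Level of each member (y axis, CPM, from 0) by the number of UMIs of the barcode (x axis, 6 bins). Orange lines are Trained and blue lines Untrained libraries, circles replicate 1 and triangles replicate 2. In the lowest bin the 2 Trained libraries lie above the 2 Untrained ones for every member except Rian, Mirg and Snhg11.

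Training was tested in each class, in all nuclei and in the pool. With the quasi-likelihood test of edgeR and Benjamini-Hochberg adjusted p-values, no member was called in any class, 0 of 69 tests, where 0.0136% of all gene tests were called. At an unadjusted p under 0.05, 12 of the 69 passed, beside 5.28% of all gene tests, and DESeq2's Wald test called 0. In all nuclei 0 of 9 were called, with 0% of 17455 genes called, by edgeR and 0 by DESeq2's Wald test, and Neat1 alone of the 9 had an edgeR p under 0.05 before adjustment. Malat1 had 43711 and 55261 CPM in Trained and 44317 and 50482 CPM in Untrained nuclei, so that the groups overlapped, and its log2 change was 0.10 ± 0.15. The log2 change was 0.12 ± 0.13 for Meg3, 0.11 ± 0.13 for Rian, 0.11 ± 0.13 for Mirg and -0.17 ± 0.17 for Snhg11, all with overlapping groups. For these 5 a missed call does not show equal levels. Neat1, with 95.02 and 62.5 CPM in Trained and 48.3 and 62.0 CPM in Untrained nuclei, had a log2 change of 0.53 ± 0.21, and its nearest libraries were almost level. Sox2ot had 0.20 ± 0.12, Miat 0.05 ± 0.15 and Rmst -0.20 ± 0.31.

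Within dentate granule-like nuclei Meg3 had 3229 and 1917 CPM in the Trained and 1584 and 1835 CPM in the Untrained libraries, a log2 change of 0.57 ± 0.17 with an adjusted p of 0.609 by edgeR. Both Trained libraries lay above both Untrained ones, as they did for 17% of genes tested in this class. Without Trained replicate 2 the change was 0.90 and called, at an adjusted p of 5.62e-05 by edgeR. Neat1 had 52.6 and 73.6 CPM in Trained and 29.3 and 30.04 CPM in Untrained dentate granule-like nuclei, a log2 change of 1.22 ± 0.27 with an adjusted p of 0.205 by edgeR, and without Trained replicate 1 this was 1.34 and called at 0.0152. In inhibitory-like nuclei the Neat1 difference was 1.43 ± 0.40 and in CA1-like nuclei 0.76 ± 0.40, both without a call. With the pool profile subtracted the inhibitory-like difference was 1.41 ± 0.70. Neat1 in dentate granule-like, inhibitory-like and CA1-like nuclei lay below the pool in every library, so these differences are not read as changes of neuronal expression. Sox2ot had 52.6 and 75.8 CPM in Trained and 37.7 and 40.1 CPM in Untrained dentate granule-like nuclei, and its log2 change of 0.86 ± 0.26 was not called. These levels lay below the pool of each library, and with the pool profile subtracted the change was 0.64 ± 0.44. Malat1 in thalamic-like nuclei, at 27121 and 30513 CPM in the Trained and 22297 and 23577 CPM in the Untrained libraries, differed by 0.33 ± 0.12 without a call, but by 0.43 with an adjusted p of 0.00076 by edgeR without Trained replicate 1. Further calls by edgeR came in a class when 1 library was left out, beside 0.0301% to 0.765% of all gene tests. They were Malat1 in CA3-like nuclei (-0.47, without Trained replicate 2), Rmst in thalamic-like nuclei (-1.42, without Untrained replicate 1), and, without Untrained replicate 2, Rmst in dentate granule-like (2.10) and Meg3 (0.72) and Miat (0.87) in oligodendrocyte-like nuclei. Neat1 was also higher in the pool of the Trained libraries, and with the pool profile subtracted its change was 0.93 ± 0.43 in dentate granule-like and 0.15 ± 0.29 in all nuclei.

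The pool was tested in the same way, and no member was called. The log2 change of Neat1 there was 1.49 ± 0.15 with an adjusted p of 0.12 by edgeR. Sox2ot had 116 and 111 CPM in the Trained and 50.2 and 55.1 CPM in the Untrained pool, a change of 1.03 ± 0.15 with an adjusted p of 0.129 by edgeR, and Malat1 a change of 0.85 ± 0.58. At an unadjusted p under 0.05, 4 of 9 passed, beside 19.0% of all genes, and DESeq2's Wald test called 3, Neat1, Sox2ot and Malat1, beside 1.94% of genes. Leaving out 1 library in turn gave 1 to 6 calls by edgeR, and Neat1 was called each time. The 6 came without Trained replicate 2, where 28.7% of all genes were called, against 0.495% to 1.71% without any other library. In 6 of 9 members both Trained libraries lay above both Untrained ones, as in 34.4% of the 16457 genes tested, none of which was called. With the pool limited to 260 to 400 UMIs, a window that all 4 libraries reach, 3 members were called, beside 8% of genes tested. They were Neat1 (2.22 ± 0.34), Sox2ot (1.73 ± 0.24) and Rmst (1.48 ± 0.35), at adjusted p of 0.0246, 0.0231 and 0.0456 by edgeR. With a pool under 300 UMIs 0 members were called, beside 0.00658% of genes. The lowest barcode held 101 and 174 UMIs in the Trained and 201 and 251 UMIs in the Untrained libraries. The window of 260 to 400 UMIs took 16834 of 55744 and 10596 of 47908 pool barcodes of the Trained libraries. Of the Untrained libraries it took 44076 of 51573 and 24783 of 26378, so it compares unlike parts of the pools. The depth of the pool and the group cannot be told apart under either limit.

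Pool barcodes with oligodendrocyte markers were read separately. They had to meet the oligodendrocyte marker rule except for its lead over other classes, which was asked of nuclei only. These barcodes held 406 and 469 CPM of Neat1 in the Trained and 131 and 114 CPM in the Untrained libraries. Oligodendrocyte-like nuclei had 421 and 359 CPM in the Trained and 409 and 574 CPM in the Untrained libraries, so the pool barcodes lay below the nuclei in both Untrained libraries and in Trained replicate 1, there by little. The remaining pool barcodes still differed, with 99.3 and 89.0 CPM of Neat1 in the Trained and 30.9 and 35.5 CPM in the Untrained libraries. Malat1 in the marker-positive pool barcodes followed the same split, with 35113 and 39383 CPM in the Trained and 17572 and 19107 CPM in the Untrained libraries. Whether barcodes under 400 UMIs hold nuclei in some libraries was not tested.

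**Figure D5:**
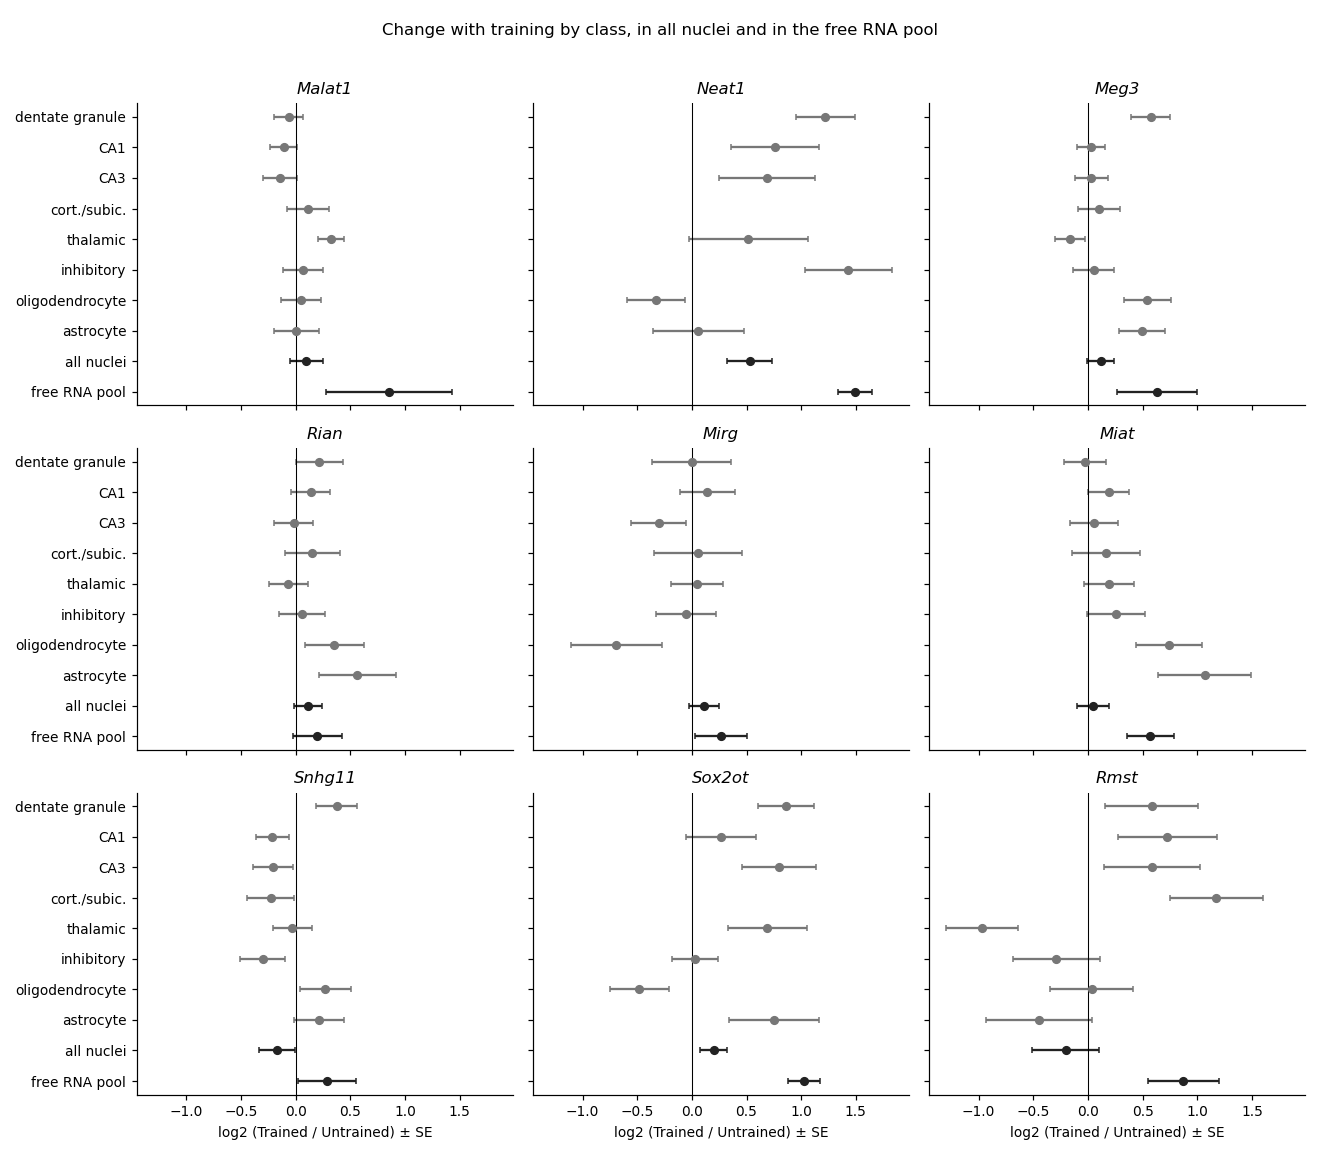
Log2 change of each member, Trained over Untrained (x axis, with SE from edgeR), in 8 classes, in all nuclei and in the free RNA pool (y axis). Points right of the line are higher in Trained libraries, and none of the values shown was called. Neat1, Sox2ot and Mirg are among those left of the line in oligodendrocyte-like nuclei and right of it in the pool.

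The effect of training was last compared between classes. Of 72 tests, 2 were called by edgeR, both in oligodendrocyte-like nuclei, where 0.0454% of genes were called, beside 0.00682% of all gene tests. Neat1 had a log2 change of -0.33 ± 0.27 in oligodendrocyte-like nuclei, and its effect there minus the mean effect in the other classes was -1.12 ± 0.24 with an adjusted p of 0.0281 by edgeR. Sox2ot had 346 and 391 CPM in Trained and 442 and 607 CPM in Untrained oligodendrocyte-like nuclei, a change of -0.48 ± 0.27, and a difference of effects of -1.03 ± 0.23 with an adjusted p of 0.0301 by edgeR. Neither change within oligodendrocyte-like nuclei was called on its own. With the pool subtracted neither was called, and the Neat1 difference was -0.15 ± 0.57, while that of Sox2ot was -1.02 ± 0.36. Neither was called after thinning to 600 UMIs, at -1.22 for Neat1 and -1.09 for Sox2ot, or with Leiden clusters, at -0.72 for Neat1 and -0.97 for Sox2ot. Both calls were also lost without Trained replicate 1 and without Untrained replicate 2, where Neat1 was -0.84 and -0.86 and Sox2ot -0.76 and -0.71. Without Trained replicate 2 the dentate granule-like difference was 0.84 for Meg3 and 1.16 for Snhg11, where all 4 libraries gave 0.44 ± 0.17 and 0.49 ± 0.19 without a call. Mirg had fewer CPM in oligodendrocyte-like nuclei of both Trained libraries (34.0 and 42.8) than of both Untrained ones (49.5 and 82.0), without a call. The Trained replicate 1 value rests on 5 UMIs.

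The companion lists showed no call with training in all nuclei or in the pool. In all nuclei the medians were 0.19 for 6 Dlk1-Dio3 neighbours, 0.01 for 11 paraspeckle protein genes, -0.07 for 15 speckle protein genes and 0.02 for 24 other lncRNAs, beside 0.00 for all genes. In the pool, Mir100hg (0.95 ± 0.16) and Mir99ahg (1.02 ± 0.21) were likewise high without a call, while 76 ribosomal protein genes had a median of -0.50 and 13 mitochondrial ones of -0.49. In all nuclei these medians were -0.38 and -0.47, and in oligodendrocyte-like nuclei -0.52 and -0.64, with none of these genes called. The median mitochondrial share of a nucleus was 0.271% and 0.281% in Trained replicates 1 and 2, against 0.445% and 0.378% in Untrained replicates 1 and 2. Its part in the training results was not tested.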

How the data were processed

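Nuclei of mouse hippocampus were profiled with Chromium Single Cell 3' v3.1 chemistry, per the labels' protocols, in 4 libraries. The deposited values are whole-number counts of UMIs per gene and barcode. Per the file headers they were made with Cell Ranger 7.0.0, while the submitters' processing notes name Cell Ranger 8, STAR and the build GRCm39. Whether counting used strand is not given in the sources used here, so overlapping and antisense genes cannot be told apart.

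Counts were summed over barcodes of at least 600 UMIs by library and class, and over barcodes under 400 UMIs as the free RNA pool. A class needed at least 3 marker UMIs from at least 2 marker genes (3 for lists of 8 or more), at least 3 times the share of those markers averaged over the libraries, and a score 1.5 times that of any other class. Barcodes that met a class without that lead in score were left out, and no doublet caller was run. Sums were tested with edgeR 4.0.16 (quasi-likelihood, filterByExpr, TMM) in R 4.3.3 with Benjamini-Hochberg adjustment over all genes, threshold 0.05. Library was a block in the tests of class, of nuclei against pool and of the interaction, and training was tested without a block. All 9 members were described in every comparison. At most 4 genes of a companion list were named, those with the smallest p, and the 3 genes most like a member were ranked by Pearson correlation of log2(CPM + 10). Alternatives were DESeq2 1.42.0, other scaling, filters, UMI limits, thinning, a stricter marker rule, Leiden clusters, subtraction of the pool, and leaving out each library. A pool of 260 to 400 UMIs and the interaction with the pool subtracted were chosen after seeing the data. Nuclei summed to 4799202 to 18423764 UMIs in a library. Scripts were tested on simulated data. Members and lists were chosen with earlier results of these data known. Sequences are from RefSeq, with 6 of 9 members matched to a start site window.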

Additional observations from a re-analysis of the deposited data

Results flagged for a closer look

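Neat1 in oligodendrocyte-like nuclei stood out because the effect of training differed from that in the other classes. The difference of log2 effects was -1.12 ± 0.24 with an adjusted p of 0.0281 by edgeR, and of the Trained libraries (421 and 359 CPM) replicate 1 lay within the range of the Untrained ones (409 and 574 CPM) and replicate 2 below it. Sox2ot in the same nuclei stood out in the same way, at -1.025 ± 0.23 with an adjusted p of 0.0301 by edgeR, with both Trained libraries (346 and 391 CPM) below both Untrained ones (442 and 607 CPM). In the free RNA pool both RNAs were higher in the Trained libraries, and the part of this in these differences was not tested for Sox2ot beyond the subtraction given above.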

How the results depend on the processing

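Of the 55 class calls, 39 held under every alternative in which they could be tested. With a UMI minimum of 1000, which left 3 classes, 18 of 27 tests were called, beside 25.5% of all gene tests. Sox2ot in dentate granule-like nuclei there reversed to 0.39 without a call. Of the other class calls, the Miat call in CA3-like nuclei was lost most often. Training by class gave 1 to 3 calls when 1 library was left out and 0 under the other unpaired alternatives, and training in the pool gave 1 to 6 when 1 library was left out. Pool training gave 3 calls with no count filter (5.45% of genes), 3 with DESeq2's Wald test (1.94%) and 3 with a pool of 260 to 400 UMIs (8%). It gave 0 with a pool under 300 UMIs (0.00658%), with DESeq2 size factors (0%) and without TMM (0%). With the replicate number as a block, training by class gave 1 call (Malat1 in thalamic-like nuclei), beside 0.102% of all gene tests. The pool gave 3 calls under this block, beside 5.12% of genes. In the sums over all nuclei, same-numbered libraries did not deviate together (r = -0.03 over 17455 genes), so the numbers are not taken as pairs. Pairing in the pool or in single classes was not tested. The interaction gave 0 to 4 calls when 1 library was left out, 1 with the stricter marker rule, and 0 with thinning, with Leiden clusters and with the pool subtracted. With a UMI minimum of 1000 it gave 0, but oligodendrocyte-like nuclei were not among the 3 classes left. In all nuclei no alternative called a member for training. Without TMM the median of all genes in a class shifted by -0.14 (CA3-like) to 0.17 (astrocyte-like) on the log2 scale. Members across classes then had 54 calls, beside 20.7% of all gene tests. The causes were not tested. Rmst and Mirg in astrocyte-like nuclei rest on few UMIs, which limits what their values can show. The same holds for Mirg in cortical or subicular-like and oligodendrocyte-like nuclei of Trained replicate 1.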
